A study of Mus musculus with 4 samples.

Results

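Expression of 10 genes of the ATF4 amino acid stress response was examined in tumour-exposed mouse macrophages with and without a myeloid Mettl3 knockout. The genes were taken by symbol from the 55401 genes of the deposited expression table, and all 10 were found and had enough counts to be tested. They were Atf4 and Atf3 (transcription factors), Trib3 (a feedback inhibitor), Asns, Slc7a5 and Chac1 (asparagine synthesis, amino acid import and glutathione breakdown), Phgdh and Psat1 (serine synthesis), and Shmt2 and Mthfd2 (the mitochondrial folate pathway). None of the 10 differed between knockout and control by the test, which called 0 of all 17260 genes tested. Control 1 and control 3 stood far apart for these genes. All 10 were higher in control 3, by 1.47-fold to 7.75-fold, against 50.0% of all genes. For 8 of them both knockouts lay between a low control 1 and a high control 3, against 9.57% of all genes. For 9 of the 10 the knockout was above the control among the libraries numbered 1 and below it among those numbered 3. These signs were seen in 24.9% of all genes.

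The integrated stress response starts when a kinase that senses amino acid shortage, endoplasmic reticulum stress, viral RNA or haem shortage phosphorylates the translation factor eIF2. General translation then slows, while the Atf4 mRNA is translated more, and the ATF4 protein switches on genes for amino acid synthesis, import and tRNA charging. In activated macrophages, serine synthesis and the one-carbon units made from serine are known to feed nucleotide, methyl group and glutathione supply. ATF4 is controlled largely at translation, so the mRNA levels below do not measure the protein.

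The macrophages were grown with M-CSF from bone marrow of C57BL/6 mice aged 8 weeks and kept together with MC38, a mouse colon carcinoma line, for 24 h. The 2 control libraries (numbered 1 and 3 in the labels) came from mice with a floxed Mettl3 gene. The 2 knockout libraries (also 1 and 3) came from floxed mice that carried LysM-cre as well, a Cre recombinase expressed from the lysozyme locus of myeloid cells. METTL3 is the methyltransferase that places N6-methyladenosine on mRNA. All 4 libraries had MC38 contact and both floxed alleles, so neither an unexposed nor a Mettl3-unfloxed reference was compared. Only the knockouts carried Cre, so Cre itself and loss of Mettl3 cannot be told apart. The labels do not say whether tumour cells were removed, whether animals were pooled, or what libraries of the same number have in common. P-values thus measure the spread between these libraries, which may in part be technical.

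Total estimated counts were 55100415 to 79209870 per library, and 20650 to 20986 genes had a count. Levels are given as CPM (counts scaled by library size) within a gene, and as deposited FPKM (counts scaled by gene length and library size) between genes, with library 1 before library 3 wherever a pair of values is given for a group. Mettl3 itself reached 18.3 (control 1) and 23.2 CPM (control 3), against 13.9 (knockout 1) and 19.6 CPM (knockout 3), so the groups overlapped. Its log2 fold change was -0.31 ± 0.27 (SE over n = 2 libraries each; edgeR adjusted p = 1.00). A count over the whole gene does not check which exons were deleted. Xist, expressed from the inactive X of female cells, stood at 0.589 and 0.624 CPM in the libraries numbered 1 and at 1351 and 1161 CPM in those numbered 3. Library number and this sex pattern thus cannot be told apart. All 14 macrophage markers on the list had enough counts to be tested. Of the 15 epithelial and colon carcinoma markers, 9, among them Epcam, Krt8 and Krt18, were listed at 0 in all 4 libraries. The summed level of the list was 0.755 to 1.70 CPM. No library of MC38 alone was compared, so these low levels do not show that tumour RNA was absent.

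The promoters of 4 of the genes are shown because they hold the core of the C/EBP-ATF response element, the composite site that ATF4 binds with C/EBP family partners. The core TGATGNAA was searched on both strands, from 250 bases before to 50 after each RefSeq gene start (GRCm38.p6). It was found in 4 of the 9 members with a window (44.4%), against 4.51% of 27025 genes. The members were picked as genes of the ATF4 response, so this share is not independent of how they were chosen. Capitals mark the core, written as TTNCATCA where it lies on the opposite strand. In Asns, Atf3 and Chac1 the core began 23, 110 and 193 bases before the start, and 100 upstream bases are printed. In Trib3 it lay just after the start, and 30 bases are printed. These positions use the RefSeq starts. By the deposited gene coordinates, the cores of Asns and Atf3 lie inside the gene and those of Chac1 and Trib3 before it.
Asns, chr6:7693210-7693309, minus strand: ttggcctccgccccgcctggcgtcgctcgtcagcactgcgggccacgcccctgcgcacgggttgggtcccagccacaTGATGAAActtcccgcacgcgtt
Chac1, chr2:119351003-119351102, plus strand: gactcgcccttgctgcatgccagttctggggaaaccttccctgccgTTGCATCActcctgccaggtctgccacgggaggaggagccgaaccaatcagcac
Atf3, chr1:191183390-191183489, minus strand: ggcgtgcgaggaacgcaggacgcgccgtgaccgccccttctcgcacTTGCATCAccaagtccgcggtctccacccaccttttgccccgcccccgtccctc
Trib3, chr2:152344028-152344057, minus strand: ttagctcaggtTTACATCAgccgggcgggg
The windows of Atf4, Psat1, Phgdh, Shmt2 and Mthfd2 do not hold these letters, which says nothing of sites elsewhere, and Slc7a5 was not in the promoter table. Of the 4 genes with the core, Asns, Trib3 and Chac1 had the largest control 3 to control 1 ratios of the 10 and Atf3 the smallest. This comparison was made after the values were seen.

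The transcription factors were the most abundant of the 10 genes per length. Atf4 (chromosome 15, 80255184 to 80257541), which encodes the factor that drives the response, reached 43.4 (control 1) and 109 FPKM (control 3), against 55.2 (knockout 1) and 97.3 FPKM (knockout 3). On the count scale Atf4 was at 115 and 282 CPM in the controls against 145 and 257 CPM in the knockouts. Both libraries numbered 3 were high and both numbered 1 low, whatever the genotype, and the groups overlapped. The log2 fold change of Atf4 was 0.02 ± 0.52 (SE over n = 2 libraries each; edgeR adjusted p = 1.00). Knockout 1 exceeded control 1 by 0.33 (log2), and knockout 3 differed from control 3 by -0.14. Atf3 (chromosome 1, 191170296 to 191218039), a stress-induced factor that also restrains inflammatory genes in macrophages, reached 47.5 and 71.6 FPKM in control libraries, against 45.8 and 97.4 FPKM in knockout libraries. Its levels were 115 and 169 CPM against 109.6 and 235 CPM. Atf3 was the 1 member with the opposite signs, -0.07 within number 1 and 0.47 within number 3, and knockout 3 was its highest library. Its log2 fold change was 0.28 ± 0.43 (SE over n = 2 libraries each; edgeR adjusted p = 1.00).

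**Figure D1:**
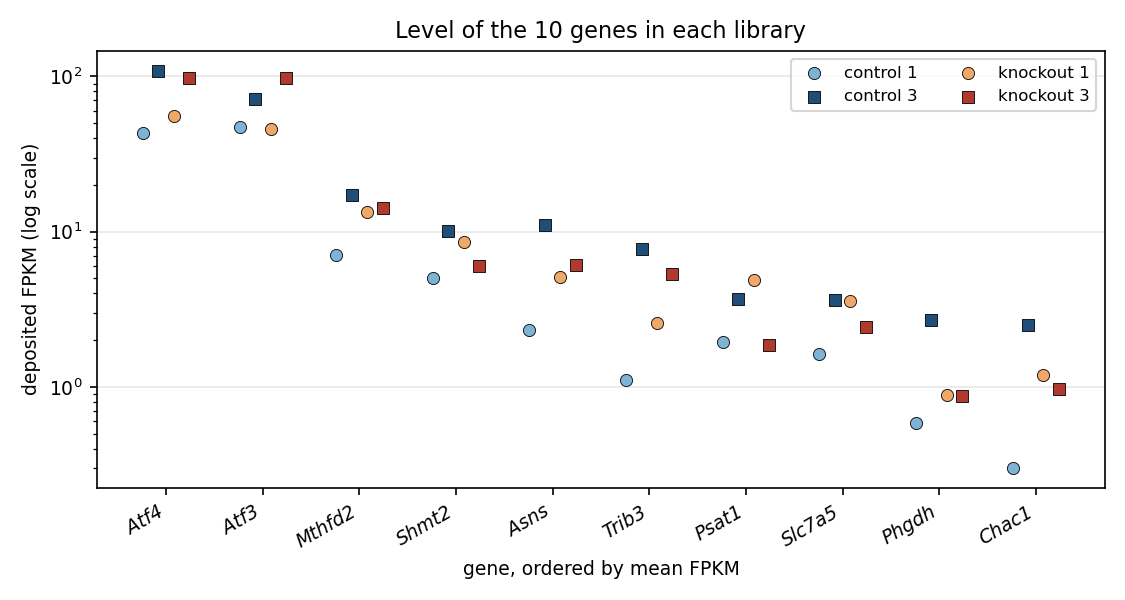
Deposited FPKM (log axis) of the 10 genes, ordered by mean level, with 1 point per library (circles for number 1, squares for number 3, blue for control and red or orange for knockout). Control 3 lies above control 1 for every gene, by 1.47-fold to 7.75-fold on the CPM scale, and both knockouts lie between the controls for 8 of the 10.

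Trib3 (chromosome 2, 152337422 to 152344032), a pseudokinase induced by ATF4 that feeds back on it, was much less abundant. It reached 2.65 (control 1) and 18.1 CPM (control 3), against 6.08 (knockout 1) and 12.7 CPM (knockout 3). The order of the 4 libraries was that of Atf4, with a wider spread: 6.77-fold between the controls and 2.09-fold between the knockouts. Its log2 fold change of -0.14 ± 0.95 (SE over n = 2 libraries each; edgeR adjusted p = 1.00) stood for 1.19 within number 1 and -0.51 within number 3.

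The genes for amino acid supply and glutathione breakdown had control 1 as their lowest library and control 3 as their highest. Asns (chromosome 6, 7675169 to 7693254), which makes asparagine from aspartate and glutamine, reached 7.14 (control 1) and 33.2 CPM (control 3), against 15.5 (knockout 1) and 18.6 CPM (knockout 3). The knockouts were 1.20-fold apart and lay in the gap between the controls, which were 4.64-fold apart. Asns differed by 1.12 within number 1 and by -0.84 within number 3 on the log2 scale. Slc7a5 (chromosome 8, 121881150 to 121907694), the light chain of the LAT1 importer of large neutral amino acids, reached 6.77 and 14.7 CPM in control libraries, against 14.6 and 10 CPM in knockout libraries. Control 1 was the low library, and knockout 1 lay next to control 3. Chac1 (chromosome 2, 119351229 to 119354381), which cleaves glutathione and is induced through ATF4, reached 0.552 and 4.49 CPM in control libraries, against 2.16 and 1.78 CPM in knockout libraries. It showed the widest gap between controls of the 10 genes, 7.75-fold, but rested on 30 counts in control 1 and 278 in control 3. Between the knockouts, at 135 and 141 counts, the ratio was 0.827. The differences within numbers 1 and 3 were 1.91 and -1.32 for Chac1 and 1.11 and -0.55 for Slc7a5 (log2). Pooled log2 fold changes were -0.24 ± 0.73 for Asns, 0.20 ± 0.46 for Slc7a5 and -0.36 ± 0.99 for Chac1 (SE over n = 2 libraries each; edgeR adjusted p = 1.00 for all 3).

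The serine synthesis genes did not share 1 order. Phgdh (chromosome 3, 98313170 to 98339990), the entry enzyme of the pathway, reached 1.66 CPM in control 1, 7.35 CPM in control 3 and 2.43 CPM in each knockout. It had the lowest log2 fold change of the 10, -0.89 ± 0.76 (SE over n = 2 libraries each; edgeR unadjusted p = 0.296, adjusted p = 1.00), and control 3 was the 1 library that stood apart. Knockout 1 was 0.54 above control 1, and knockout 3 differed from control 3 by -1.59 (log2). The value is uncertain because 19 annotated genes, mostly without counts, match Phgdh at 90% identity or more over at least 200 bases. The closest, Gm7901, at 98.7% identity, had 30 and 198 counts in the controls and 86 and 119 in the knockouts. Summed with all 19, control 1 stayed lowest and control 3 highest, at 2.29 and 11.0 CPM of the total in the controls against 4.22 and 4.39 in the knockouts. Psat1 (chromosome 19, 15904678 to 15947337), the next enzyme, reached 9.37 and 17.3 CPM in control libraries, against 23.2 and 8.88 CPM in knockout libraries. Here knockout 1 was the highest library and knockout 3 the lowest, with 1.31 within number 1 and -0.96 within number 3 (log2). Psat1 was thus the gene with the widest difference between knockouts, in the direction opposite to that of its controls, and its log2 fold change was 0.27 ± 0.57 (SE over n = 2 libraries each; edgeR adjusted p = 1.00).

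The mitochondrial folate enzymes were the next most abundant members after the transcription factors, at a mean of 12.9 FPKM for Mthfd2 and 7.44 FPKM for Shmt2. Shmt2 (chromosome 10, 127517123 to 127522444), which splits serine into glycine and a one-carbon unit, reached 17.6 (control 1) and 34.6 CPM (control 3), against 29.7 (knockout 1) and 21.0 CPM (knockout 3). Mthfd2 (chromosome 6, 83305691 to 83317606), which oxidises that unit, reached 27.7 and 65.6 CPM in control libraries, against 51.8 and 55.2 CPM in knockout libraries. In both genes control 1 was lowest and control 3 highest. The log2 differences were 0.76 and -0.72 for Shmt2 and 0.90 and -0.25 for Mthfd2, within numbers 1 and 3, and the pooled values were -0.04 ± 0.40 and 0.20 ± 0.43 (SE over n = 2 libraries each; edgeR adjusted p = 1.00 for both). Gm20388 lies over the whole of Slc7a5 on the opposite strand but was listed at 0 in all libraries, and Ndufa4l2 overlaps 32 bases of Shmt2 on the opposite strand. Gm43890, at 0.0994 to 0.346 FPKM, lies within Mthfd2 on the same strand. Whether it overlaps exons of Mthfd2 was not checked, so some reads may be shared between them.

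Between the genotypes, edgeR called 0 of the 10 genes, as it called 0% of the 17260 tested, and DESeq2 called 0 of the 10 against 0.380% of the genes to which it gave an adjusted p. At an unadjusted p under 0.05 there were 0 of the 10 by edgeR, against 2.27% of all genes, and 0 by DESeq2, against 2.42%. Log2 fold changes ran from -0.89 to 0.28 with standard errors of 0.40 to 0.99, so the pooled comparison had little precision for them. With 2 libraries a group an exact permutation test cannot go below p = 0.333. In 0 members were the knockouts both above the controls, against 13.1% of all genes, and in 0 both below, against 13.4%. The median of the 10 was -0.01, as near to 0 as the 0.00 of all genes, but it hid a median of 1.00 within number 1 and of -0.63 within number 3 (all genes: 0.00 and -0.02). Without control 3 the median was 0.83 and without control 1 it was -0.46. The pooled value therefore depended on which control was kept.

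Each within-number difference compares 1 library with 1 other and has no replicate check, and the difference between them could not be tested, since a fit with genotype, number and their interaction leaves no residual degrees of freedom in 4 libraries. As counts, 9 members were higher in the knockout within number 1 and lower within number 3, against 24.9% of all genes, and Atf3 showed the reverse, against 22.1%. Control 3 exceeded control 1 for 10 members, against 50.0% of all genes, and knockout 3 exceeded knockout 1 for 5, against 50.2%. For 8 members both knockouts lay between a low control 1 and a high control 3, against 9.57% of all genes. By definition these 8 are also among the 9 and among the 10, so the counts are not separate results. The members belong to 1 pathway and were read in the same 4 libraries, so they are not independent replicates. Control 3 was at least 2-fold above control 1 for 7 members, against 9.74% of all genes, and knockout 3 at least 2-fold above knockout 1 for 2 (Atf3 and Trib3), against 8.88%.

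**Figure D2:**
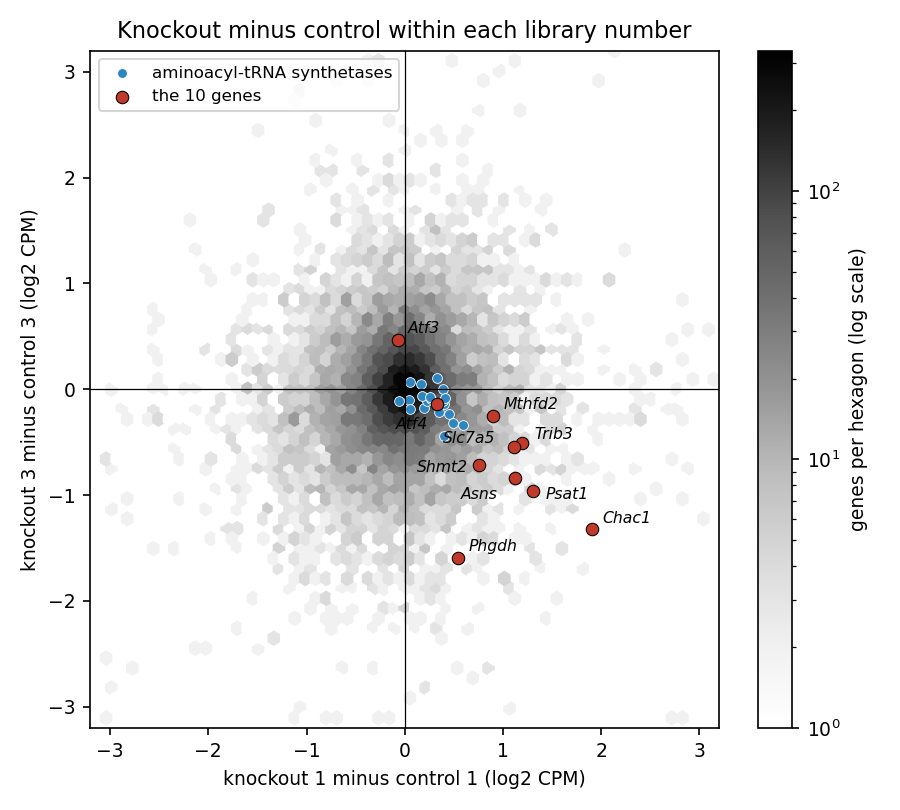
Knockout minus control in log2 CPM within number 1 (x axis) and within number 3 (y axis), with the 10 genes in red, the 20 aminoacyl-tRNA synthetases in blue and all tested genes as grey hexagons shaded by number of genes; genes outside the axis range are not drawn. Of the 10 genes, 9 lie in the lower right part, higher in knockout 1 than in control 1 and lower in knockout 3 than in control 3, and Atf3 lies in the upper left. These directions were those of 24.9% and 22.1% of all tested genes.

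The 10 genes were not alike in how number 3 compared with number 1. Atf4, Atf3 and Trib3 were higher in number 3 in both genotypes, by 2.46-fold, 1.47-fold and 6.77-fold among controls and by 1.78-fold, 2.14-fold and 2.09-fold among knockouts. Among knockouts the remaining 7 genes differed little or went the other way on the log2 scale: 0.26 for Asns, 0.09 for Mthfd2, 0.00 for Phgdh, -0.27 for Chac1, -0.50 for Shmt2, -0.54 for Slc7a5 and -1.38 for Psat1. This split was made after the values were seen. In the fit with genotype and number, edgeR called 0 of the 10 between numbers, against 0.707% of all genes, and 3 had an unadjusted p under 0.05, against 17.6% of all genes. The smallest adjusted p was that of Atf4, 0.0881, at a log2 difference of 1.06 ± 0.16 (SE, 2 libraries per number, edgeR). DESeq2 with the same terms called 4 (Atf4, Atf3, Trib3 and Asns), all higher in number 3, against 6.99% of genes with an adjusted p. For Atf4 that DESeq2 adjusted p was 1.24e-05 and for Asns it was 0.0282.

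Other genes of the pathway were read from lists. Of 20 cytosolic aminoacyl-tRNA synthetases, which charge tRNAs and include many ATF4 targets, edgeR called 0 between genotypes, against 0% of all genes. Their median log2 fold change was 0.06. Their libraries nevertheless ranked much as those of the amino acid genes. Both knockouts lay between a low control 1 and a high control 3 for 14, against 9.57% of all genes. The knockout was higher within number 1 and lower within number 3 for 16, against 24.9% of all genes. Aars, the alanyl enzyme, reached 121 and 227 CPM in control libraries, against 166 and 193 CPM in knockout libraries. Gars, the glycyl enzyme, stood at 47.5 and 85.7 CPM against 66.7 and 68.4 CPM. The median of the list was 0.54 between controls and 0.13 between knockouts, smaller than the 1.27 of the 10 genes between controls. Exceptions included Qars, at 94.3 and 78.6 CPM in the controls, and Hars, at 54.4 and 53.3 CPM. The most abundant per length, Nars and Rars, had log2 fold changes of -0.04 and 0.09. Aars, Gars and Qars were chosen after their values were seen, as were Slc7a1, Slc1a4, Cth and Mthfd1 below.

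The order with both knockouts between a low control 1 and a high control 3 was seen in 9.57% of all genes. Few of the transporters and other genes below had it, and these counts do not set them apart from all genes. Of 17 amino acid transporters 2 had it, Slc7a1 and Slc1a4. Slc7a1, an importer of arginine and lysine, reached 15.1 and 44.9 CPM in control libraries, against 28.2 and 32.1 CPM in knockout libraries. Slc3a2, the heavy chain that pairs with Slc7a5, instead followed number in both genotypes, at 219 and 509 CPM against 203 and 462 CPM. Slc38a2, a sodium-coupled importer, was the 1 of 17 transporters with both knockouts below both controls, against 13.4% of all genes. In 0 were both above, against 13.1%. Slc38a2 had a log2 fold change of -0.28 (edgeR adjusted p = 1.00), and the abundant Slc7a8 had one of -0.19. Of 21 further stress targets 1 had the order, Cth of cysteine synthesis, at under 1 CPM in every library, and the median was -0.03. Their most abundant members, Sqstm1, an autophagy receptor, and Ero1l, an oxidase of the endoplasmic reticulum, had log2 fold changes of -0.30 and -0.02. Aldh18a1, the first enzyme of proline synthesis, chosen after its values were seen, reached 10.1 and 23.3 CPM in control libraries, against 24.7 and 15.0 CPM in knockout libraries, so knockout 1 was its highest library, as for Psat1. Ddit4, an inhibitor of mTORC1 and also chosen after its values were seen, was instead lower in number 3, with 49.5 and 13.7 CPM in the controls and 34.9 and 6.97 CPM in the knockouts. Number 3 minus number 1 came to -2.09 in log2 (edgeR adjusted p = 0.0438), and Ero1l had the same difference (edgeR adjusted p = 0.0374). Without the filter on low counts edgeR called 0 genes between numbers, so both calls were lost. Of 14 other serine, glycine and folate enzymes 1 had the order (Mthfd1), and their median was 0.14, with 0.16 for Mtr, -0.34 for Gcsh and 0.38 for Shmt1. Psph, the last enzyme of serine synthesis, also chosen after its values were seen, reached 5.23 and 4.83 CPM in control libraries, against 4.59 and 4.14 CPM in knockout libraries.

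**Figure D3:**
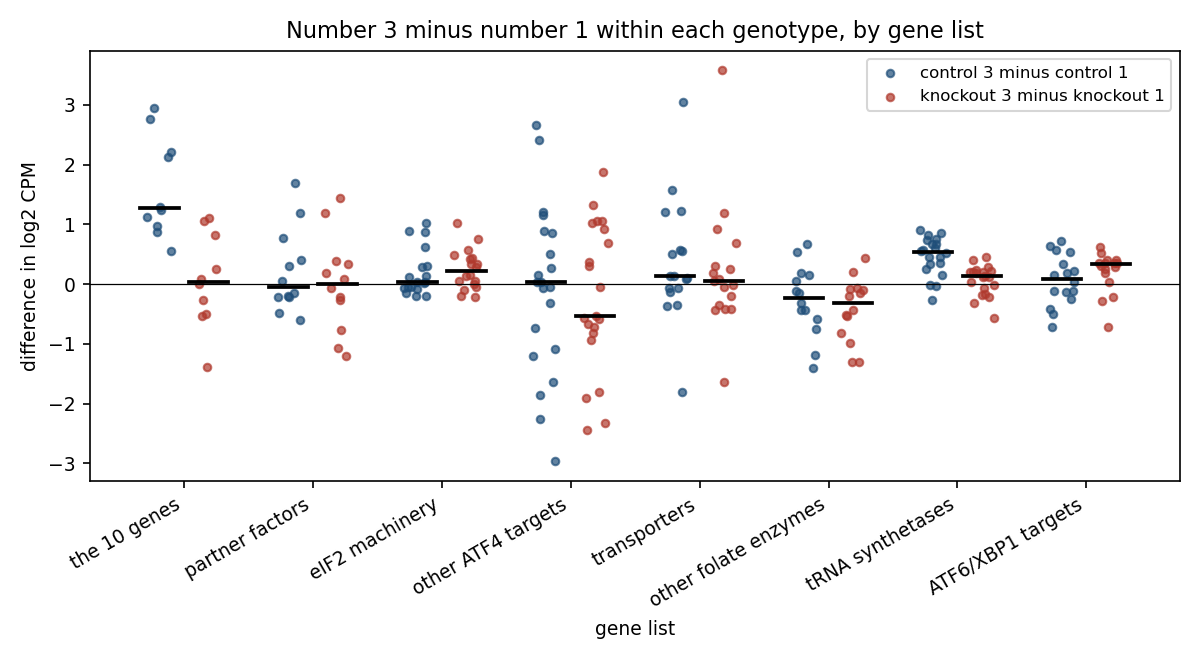
Difference of number 3 minus number 1 in log2 CPM within controls (blue) and within knockouts (red), for the 10 genes and for 7 lists of related genes; each point is a tested gene and black bars are medians. The 10 genes have medians of 1.27 in controls and 0.04 in knockouts, and the tRNA synthetases 0.54 and 0.13.

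Upstream of Atf4, edgeR called 0 of 18 genes of the eIF2 kinases, phosphatases and eIF2B, against 0% of all genes. Their median log2 fold change was 0.04. At an unadjusted edgeR p under 0.05 there was 1 gene, against 2.27% of all genes, so the count does not set this list apart. That gene was Eif2ak2, the kinase PKR that senses double-stranded RNA and is itself induced by interferon. It reached 116 and 109.9 CPM in control libraries, against 149 and 201 CPM in knockout libraries, a log2 fold change of 0.63 ± 0.20 (SE over n = 2 libraries each; edgeR unadjusted p = 0.0294, adjusted p = 1.00). Eif2b4, a subunit of the exchange factor that reloads eIF2, had a log2 fold change of -0.57, and Eif2s3x, the most abundant, one of -0.01. Eif2b4 was among 3 of the 18 with both knockouts below both controls, against 13.4% of all genes. In 4, Eif2ak2 among them, both were above, against 13.1%. Among 12 partner factors edgeR called 0, against 0% of all genes, with a median of -0.04. Ddit3 (CHOP), chosen after its values were seen, reached 14.9 and 48.0 CPM in control libraries, against 12.8 and 35.0 CPM in knockout libraries, so both libraries numbered 3 were above both numbered 1, as for Atf4. Log2 fold changes were 0.05 for Nfe2l2, 0.23 for Maf and 1.06 for Batf3, which was under 4 CPM throughout.

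Chaperones and other targets of ATF6 and XBP1 belong to the other arms of the endoplasmic reticulum stress response. Of these 16 genes, 0 had both knockouts between a low control 1 and a high control 3. That share was 9.57% among all genes, so the count does not set these targets apart. Their median log2 fold change was 0.21, with 0.14 within number 1 and 0.27 within number 3. Between genotypes edgeR called 0, against 0% of all genes, and 1 at an unadjusted p under 0.05, against 2.27%. Hspa5 (BiP) reached 632 and 448 CPM in control libraries, against 803 and 994 CPM in knockout libraries, a log2 fold change of 0.73 ± 0.25 (SE over n = 2 libraries each; edgeR unadjusted p = 0.0376, adjusted p = 1.00). Manf had one of 0.41, Calr one of 0.32 and Hsp90b1 one of 0.28.

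Marker lists of other cells also differed between the libraries. In bulk RNA, fewer cells of a type and less RNA per cell cannot be told apart. The 18 fibroblast and stromal markers summed to 624 and 1489 CPM in controls 1 and 3 and to 491 and 961 CPM in knockouts 1 and 3. Sparc and Acta2, their most abundant members, and Col6a1 had log2 fold changes of -0.50, -0.53 and -0.69. Of these 18 markers, edgeR called 5 between library numbers, all higher in number 3, against 0.707% of all genes, and 0 between genotypes, against 0%. All 5 calls were lost without the filter on low counts. Whether MC38 cells contributed to the stromal list was not tested. The 15 proliferation markers summed to 556 and 311 CPM in the controls and to 732 and 310.5 CPM in the knockouts. Beside these, the 8 genes other than Atf4 and Atf3 summed to 73.4 and 195 CPM in the controls and to 145 and 131 CPM in the knockouts. By these sums, stromal markers were higher and proliferation markers lower in number 3 in both genotypes. The 8 genes summed higher in number 3 among controls and slightly lower among knockouts. Singly, 15 of the 18 stromal markers were higher in number 3 among controls and 15 among knockouts, against 50.0% and 50.2% of all genes. Of the 15 proliferation markers, 2 were higher in number 3 among controls and 0 among knockouts. The 14 macrophage markers summed to 42820.4 and 58687 CPM in the controls and to 45935 and 46519 CPM in the knockouts. Lyz2, the most abundant, alone made up 22069 and 40813 CPM in the controls and 25451 and 25785 CPM in the knockouts. It is the lysozyme gene whose locus carries LysM-cre in the knockouts, so it is not a genotype-neutral marker. The higher sum in control 3 came from Lyz2. Of the 14 markers, 7 were higher in control 3 than in control 1, and the median log2 difference was 0.00. On the log2 scale the widest fall was that of Itgam, from 3171 CPM in control 1 to 884 CPM in control 3. The widest rise was that of C1qb, from 400 to 851 CPM. Both were chosen after their values were seen. The neutrophil, lymphocyte and dendritic cell lists summed to at most 696, 35.1 and 32.8 CPM. Of the 696 CPM, reached in control 1, Csf3r alone made up 681. Ly6g and Retnlg were at 0 CPM in every library, S100a9 was at most 1.15 CPM and S100a8 at most 24.2 CPM. The part of these other cells in the differences of the 10 genes was not tested.

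**Figure D4:**
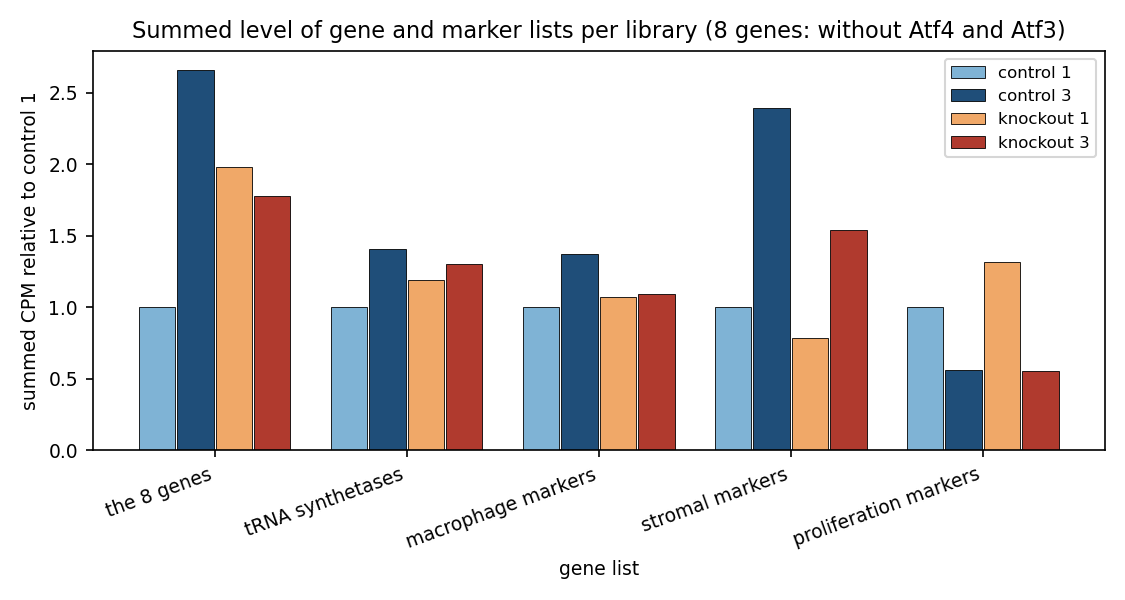
Summed CPM of each list per library, divided by its value in control 1 (bars start at 0), for the 8 genes without Atf4 and Atf3, the tRNA synthetases and 3 marker lists. The 8 genes reach 2.66 in control 3, 1.98 in knockout 1 and 1.78 in knockout 3, and the stromal markers 2.39, 0.787 and 1.54. The macrophage markers reach 1.37 in control 3, a rise that comes from Lyz2, the gene whose locus carries Cre in the knockouts.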

How the data were processed

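Poly(A) RNA was sequenced from 4 libraries. Per the submitters' processing notes, cutadapt 1.9, HISAT2 2.0.4 and StringTie 1.3.4d were used. The library protocol marks strand, per the labels' protocols. The genome build, strand use in counting and treatment of multi-mapped reads are not given in the sources used here. Values came in 1 table. In it the authors deposited estimated counts (whole numbers, not normalized) and FPKM values (0 written as 0.0001) per gene. Another 4 columns of values matched no sample and were not used. GENCODE M21 (GRCm38) holds 55141 of the identifiers, 94.2% of them at identical coordinates. Between 38.7% and 39.5% of counts from 1 to 24 were multiples of 4, so a count may be less than 1 read pair.

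Counts were tested with edgeR 4.0.16 (TMM scaling, filterByExpr, quasi-likelihood, two-sided, Benjamini-Hochberg over 17260 genes, threshold 0.05). Each printed SE is the absolute log2 fold change divided by the square root of the quasi-likelihood F statistic. That statistic uses dispersion moderated over all genes, so the SE is not a plain standard error over 2 libraries. Differences and fold ratios between single libraries use log2 CPM with a prior count of 2. At low counts they can thus depart from plain ratios of the printed CPM. Alternatives were DESeq2 1.42.0, limma 3.58.1 on log2(FPKM + 1) or log2(FPKM + 0.1), other scalings and filters, a replicate block and each library left out. The scripts were tested on simulated data. Similar transcripts were found with BLAST. The members and lists were chosen with earlier results of these data known. Named from each list were genes that passed edgeR or, where none did, the 2 most abundant and the 2 with the largest change among genes whose groups did not overlap. Promoter sequences are from RefSeq (GRCm38.p6).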

Additional observations from a re-analysis of the deposited data

Results flagged for a closer look

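For all 10 genes the difference between knockout and control had opposite signs within the 2 library numbers. The differences between them were not tested, since no residual degrees of freedom remain, and number coincides with the sex pattern of the libraries. The log2 difference within number 1 less that within number 3 was 3.23 for Chac1, 2.27 for Psat1, 2.13 for Phgdh, 1.95 for Asns, 1.70 for Trib3, 1.66 for Slc7a5, 1.47 for Shmt2, 1.15 for Mthfd2 and 0.47 for Atf4. It was -0.54 for Atf3, the gene with a higher knockout within number 3. Opposite signs were seen in 24.9% of all tested genes in the direction of the 9 and in 22.1% in that of Atf3.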

How the results depend on the processing

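Under the 12 alternatives, 0 of the 10 genes were called between genotypes. Of 120 recomputed log2 fold changes of single members, 90 kept their sign and 30 reversed, and none was called. Over all genes edgeR called 0 and DESeq2 73.

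Equal library numbers gave r = 0.419 over 17260 genes between control 1 minus control 3 and knockout 1 minus knockout 3, but no label says what they share. With the number as a replicate block, edgeR called 0 genes, DESeq2 171 (chosen after seeing the data), and the members' median was 0.19. Reversed under the edgeR block were Trib3 (0.32), Asns (0.13), Chac1 (0.24) and Shmt2 (0.02), and under the DESeq2 block Trib3 (0.33), Asns (0.14), Chac1 (0.29) and Shmt2 (0.02).

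With limma on log2(FPKM + 1), Trib3 was 0.15, Asns 0.05 and Shmt2 0.00, and on log2(FPKM + 0.1) Trib3 was 0.31, Asns 0.12, Chac1 0.20 and Shmt2 0.01. The cause was not tested. Leaving out 1 library mixes number with genotype and assumes that the lone sample varies like the other group. Medians ran from -0.46 without control 1 to 0.83 without control 3. Without control 1, Atf4 was -0.48, Psat1 -0.10, Mthfd2 -0.29 and Slc7a5 -0.25. Without control 3, Trib3 was 1.83, Asns 1.26, Chac1 1.83, Phgdh 0.55 and Shmt2 0.53. Without knockout 1, Trib3 was 0.31, Psat1 -0.57 and Slc7a5 -0.09. Without knockout 3, Atf4 was -0.46, Atf3 -0.37 and Shmt2 0.19. The other ends of these ranges were 0.80 for Atf4 and 0.95 for Mthfd2 and 0.86 for Slc7a5 (without control 3), 0.74 for Atf3 (without knockout 1), 0.80 for Psat1 (without knockout 3), and -0.94 for Trib3, -0.95 for Asns, -1.18 for Chac1, -1.59 for Phgdh and -0.44 for Shmt2 (without control 1).

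Between numbers, edgeR called 122 genes, 0 of them members, and DESeq2 1208, with 4 members. Without the low-count filter edgeR called 0. With number alone, without genotype, it called 177 from all 4 libraries. With 1 library left out of that fit (chosen after seeing the data) it called 3 without control 1, 11 without control 3, 0 without knockout 1 and 60 without knockout 3. Depth limits Chac1 and Phgdh most, at 30 and 90 counts in control 1.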
